A study of Mus musculus with 2 samples.

Results

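Methylation at 8 genes that define the surface of endothelial cells was described in 2 whole-genome bisulfite libraries of mouse adipose progenitors. The genes were the vascular growth factor receptor genes Kdr, Flt1 and Flt4, the angiopoietin receptor gene Tek with its relative Tie1, the co-receptor gene Eng, and the junction genes Cdh5 and Pecam1. They were chosen by name, with earlier results of these data known, so their shares beside those of all genes are descriptive only. Every differentially methylated region that the authors listed within a gene's RefSeq span or 2 kb on either side was taken. All 8 genes held at least 1 region, 21 in all out of 28141 listed.

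One library was made from PDGFRα+ (CD140+) cells, which carry the α receptor of platelet-derived growth factor, a mark of mesenchymal progenitors. The other was made from CD137+ cells, and CD137 is a tumour necrosis factor family receptor that has served to mark precursors of beige adipocytes. Both were from C57BL/6 mice, isolated magnetically from subcutaneous or visceral fat, cultured, exposed to an adipogenic cocktail and given 1 µM dexamethasone, a synthetic glucocorticoid. The labels do not say which depot each library came from, and no untreated cells were compared. With 1 library per group, differences could not be checked against replicates or tested, and the read depth is unknown. A level is the deposited methylation fraction of a region, and how it was averaged over cytosines and reads is not stated. In bulk DNA a lower share of methylated cells and fewer methylated copies per cell cannot be told apart. Expression was not analysed here, so the cell labels could not be checked against marker transcripts.

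Kdr encodes the receptor through which vascular endothelial growth factor drives endothelial growth, Flt1 encodes a receptor that binds the same factor tightly and can act as a decoy, and Flt4 encodes the receptor of lymphatic endothelium. Tek encodes the receptor of the angiopoietins, which steady or loosen vessels, and Tie1 a related receptor that modulates it. Endoglin, the product of Eng, is a co-receptor for ligands of the BMP and TGF-β families and is found on endothelial and on mesenchymal stromal cells. Cdh5 encodes VE-cadherin, the adhesion protein of endothelial junctions, and Pecam1 encodes an adhesion protein of the same junctions that is also carried by platelets and leukocytes. In adipose tissue these proteins occur on the endothelium of blood or lymphatic vessels. Some of them, endoglin and the Pecam1 product among them, occur also on other cells.

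The RefSeq promoter table gives a start for 6 of the 8 genes, all but Cdh5 and Pecam1. At 3 of these 6 a region reached into the 250 bases before the start, and these windows are shown because they let the regions be placed against the start of transcription. Each is printed 5′ to 3′ on the gene's own strand from GRCm38.p6, the assembly of mm10, with the bases that lie inside the region in capitals. The Eng window is chr2:32646345-32646594 on the plus strand, the Tie1 window chr4:118489850-118490099 on the minus strand and the Tek window chr4:94739039-94739288 on the plus strand.
Eng: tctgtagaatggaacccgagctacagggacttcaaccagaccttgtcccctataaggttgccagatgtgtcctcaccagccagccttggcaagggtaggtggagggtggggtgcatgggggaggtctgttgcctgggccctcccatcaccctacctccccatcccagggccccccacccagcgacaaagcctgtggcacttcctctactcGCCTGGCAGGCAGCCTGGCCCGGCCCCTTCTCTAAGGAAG
Tie1: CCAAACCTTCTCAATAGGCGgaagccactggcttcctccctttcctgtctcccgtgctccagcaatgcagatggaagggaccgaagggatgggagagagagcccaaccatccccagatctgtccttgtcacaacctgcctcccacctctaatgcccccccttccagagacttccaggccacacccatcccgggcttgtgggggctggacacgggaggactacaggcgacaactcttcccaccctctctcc
Tek: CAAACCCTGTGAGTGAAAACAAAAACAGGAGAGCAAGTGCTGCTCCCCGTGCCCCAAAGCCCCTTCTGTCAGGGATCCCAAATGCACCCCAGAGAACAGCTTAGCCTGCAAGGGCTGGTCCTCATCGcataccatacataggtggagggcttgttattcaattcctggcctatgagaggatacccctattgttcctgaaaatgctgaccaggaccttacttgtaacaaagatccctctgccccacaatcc

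The listed region covered 40 bases next to the start in Eng, 20 bases at the far edge of the window in Tie1 and 127 bases at the far edge in Tek. The number of CG dinucleotides in these 3 windows was 4 in Eng, 6 in Tie1 and 2 in Tek. The windows of Flt1, Flt4 and Kdr, which no region reached, held 23, 16 and 16. Over 32851 promoter windows of all genes the median was 6. The core of the binding motif of ETS factors, GGAA on either strand, occurred 3 times in the Eng window, 7 times in Tie1 and 2 times in Tek, but 93.4% of all windows held it at least once. The longer form CCGGAA, which contains that core, was in none of these 3 windows and occurred once in that of Kdr, against 12.0% of all windows.

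In 5 of the 8 genes every region was more methylated in PDGFRα+ cells (Eng, Cdh5, Pecam1, Tie1 and Kdr). Flt4 and Tek held only regions that were less methylated there, and Flt1 held both kinds. Among the 21887 protein-coding genes of RefSeq, 29.5% had a region by the same rule, and among the 9178 genes with spans between those of the shortest and the longest member, 43.1% had one. Of the 6454 genes with a region, 18.5% had higher regions only (19.0% among those of the members' span range), 58.5% lower regions only and 23.0% both. By region, 11 were higher and 10 lower in PDGFRα+ cells, so 47.6% were lower, beside 77.7% of all listed regions. The 21 regions are not independent, since 7 lie at Flt1 and 4 at Pecam1. The share that was lower was 28.6% without Flt1 and 58.8% without Pecam1. The median difference over the 21 regions was 0.331, beside -0.488 over all regions, but this median lies at the gap between a higher and a lower cluster and its sign depends on a few regions. With 10 or more cytosines required it was -0.385.

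**Figure D1:**
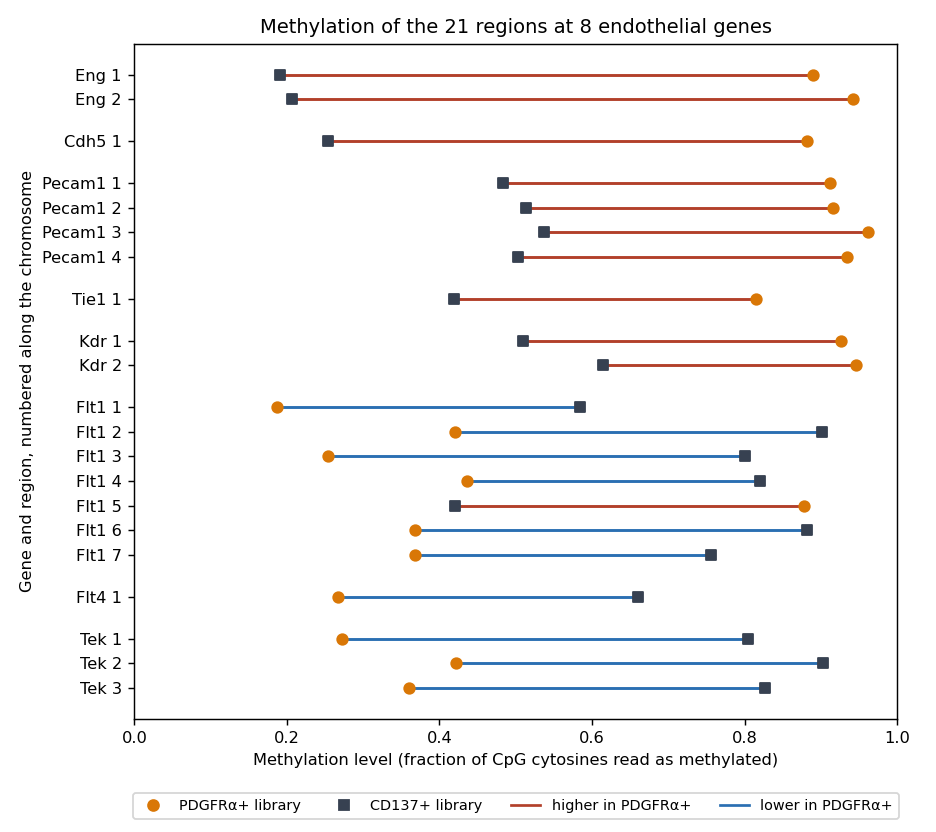
Methylation level (fraction, 0 to 1) of each of the 21 regions in the PDGFRα+ library (circles) and the CD137+ library (squares), by gene, with lines coloured by direction. The 11 higher regions all have PDGFRα+ levels of 0.816 or more, and the 10 lower regions have PDGFRα+ levels of 0.436 or less.

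Which library held the larger level is set by the direction itself, so the ranges of the levels are given as description. In the 11 higher regions the PDGFRα+ levels lay in a narrow high band from 0.816 to 0.962 (median 0.916), and the CD137+ levels spread from 0.191 to 0.615 (median 0.483). In the 10 lower regions the PDGFRα+ levels ran from 0.187 to 0.436 (median 0.364), and the CD137+ levels from 0.584 to 0.903 (median 0.813). Over all higher regions of the table the medians were 0.879 in PDGFRα+ cells and 0.344 in CD137+ cells. Over all lower regions they were 0.261 in PDGFRα+ cells and 0.820 in CD137+ cells. The members' higher regions had larger median levels than these in both libraries, and their lower regions a larger median in PDGFRα+ and a slightly smaller one in CD137+. Their median differences, 0.429 for the higher and -0.474 for the lower, were narrower than those of all higher (0.507) and all lower regions (-0.527). The members' regions had a median of 181 bases and 8 cytosines, beside 216 bases and 9 cytosines over all regions. Their higher regions were short, with medians of 100 bases and 8 cytosines, beside 193 and 9 over all higher regions. Their lower regions were not, with medians of 224 bases and 11.5 cytosines, beside 222 and 9 over all lower regions.

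**Figure D2:**
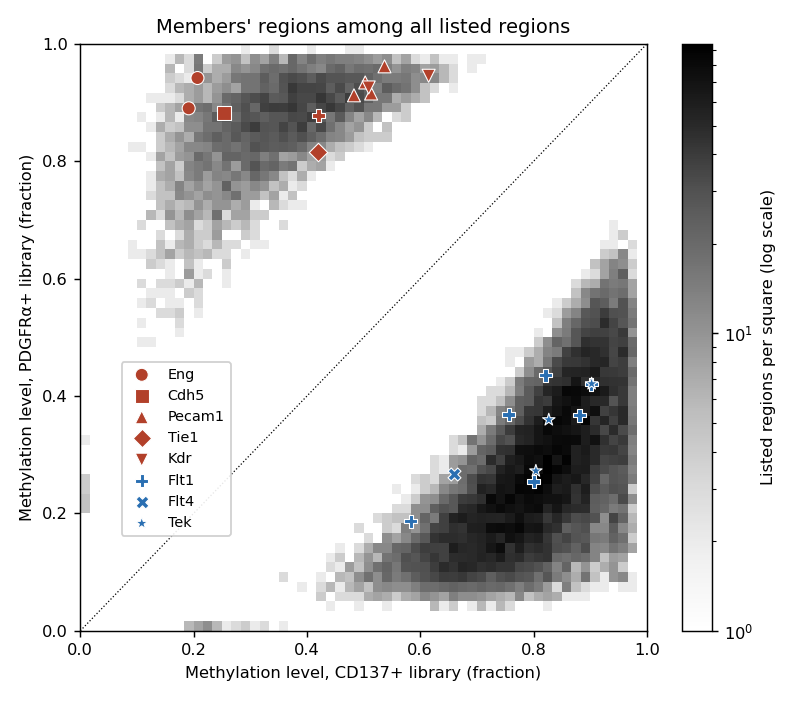
Methylation level in the PDGFRα+ library (vertical, fraction) against the level in the CD137+ library (horizontal, fraction) for all 28141 listed regions as grey density on a log colour scale, with the 21 regions of the 8 genes on top, red where higher and blue where lower in PDGFRα+. The 2 Eng regions lie at the upper left, with CD137+ levels of 0.191 and 0.207, and the Pecam1 and Kdr regions lie to their right, with CD137+ levels between 0.483 and 0.615.

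Kdr, the main receptor of the vascular growth factor, had 2 higher regions, both in the part of the gene next to its start. The nearer one, chromosome 5 from 75976708 to 75976789, lay 1666 bases past the start, and its level was 0.946 in PDGFRα+ cells and 0.615 in CD137+ cells. This region lies also within 2 kb of the non-coding RNA gene Gm32727. The other, 75974703 to 75974939, lay 3516 bases past the start and had levels of 0.926 in PDGFRα+ cells and 0.509 in CD137+ cells. These were modest differences for the table, since 97.1% and 83.1% of all higher regions were at least as wide. The Kdr locus was mixed beyond the gene. A region 5426 bases below it was higher (0.959 in PDGFRα+ cells and 0.559 in CD137+ cells), and a large one of 35 cytosines 8301 bases above it, on the side of the start, was lower (0.148 in PDGFRα+ cells and 0.799 in CD137+ cells). With both included, at 10 kb on either side, the mean difference of Kdr was 0.124 instead of 0.374.

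Flt1 held 7 regions in 165 kb, the most of the 8 genes, and 6 of them were lower in PDGFRα+ cells. The region nearest the start, chromosome 5 from 147697556 to 147697838, lay 28173 bases into the gene, and its level was 0.368 in PDGFRα+ cells and 0.756 in CD137+ cells. The widest difference was at 147601893 to 147602077. That region had levels of 0.254 in PDGFRα+ cells and 0.801 in CD137+ cells, but over 4 cytosines, the smallest number listed for any region. The remaining lower regions had levels between 0.187 and 0.436 in PDGFRα+ and between 0.584 and 0.902 in CD137+. The outermost of them, 1597 bases beyond the end of the gene, is the one nearest to the 2 kb limit from within. The single higher region, 147646231 to 147646678, was also the largest, with 27 cytosines in 448 bases and levels of 0.878 in PDGFRα+ cells and 0.421 in CD137+ cells. It lay between lower regions on both sides. The mean difference of Flt1 was -0.322, and -0.167 when regions were weighted by their cytosines, since the higher region then counts most.

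Flt4, the lymphatic receptor gene, had 1 region, chromosome 11 from 49634663 to 49635028, 24984 bases past its start. It had the largest number of cytosines of the 21 regions, 38 in 366 bases. Its level was 0.267 in PDGFRα+ cells and 0.660 in CD137+ cells. A region 28905 bases before the gene was of the other direction, with levels of 0.905 in PDGFRα+ cells and 0.507 in CD137+ cells, but rested on 4 cytosines. The other listed regions within 100 kb, 52192 and 91009 bases beyond the far end, were lower like that of the gene. Their levels were 0.2735 and 0.0696 in PDGFRα+ cells and 0.7425 and 0.796 in CD137+ cells, over 14 and 12 cytosines.

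The 2 receptor genes of the Tie family differed in direction near their starts. Tie1 had 1 region, chromosome 4 from 118490080 to 118490238, which lay between 231 and 389 bases before the start and had levels of 0.816 in PDGFRα+ cells and 0.420 in CD137+ cells over 7 cytosines. It lies also within 2 kb of the pseudogene Gm12859. Tek had 3 regions, all lower in PDGFRα+. The first, chromosome 4 from 94738497 to 94739165, crosses the lower end of the gene span and ends 124 bases before the listed start. Its level was 0.272 in PDGFRα+ cells and 0.804 in CD137+ cells over 23 cytosines. The other Tek regions lay deep in the gene, 93471 and 97937 bases past the start, at 94832760 to 94832839 and 94837226 to 94837292. The PDGFRα+ library had levels of 0.421 and 0.360 there, against 0.903 and 0.827 in the CD137+ library. On either side of Tek the nearest regions outside the gene were higher, with levels of 0.929 and 0.894 in PDGFRα+ and 0.538 and 0.348 in CD137+.

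Eng showed the widest differences of the 8 genes. Its first region, chromosome 2 from 32646555 to 32646946, spans the start of the gene and reaches 351 bases past it. Its level was 0.890 in PDGFRα+ cells and 0.191 in CD137+ cells over 21 cytosines. The second region, 32651478 to 32651570, lay 4883 bases past the start and had levels of 0.942 in PDGFRα+ cells and 0.207 in CD137+ cells over 5 cytosines. It lies also within 2 kb of the microRNA gene Mir1954, which is placed inside the Eng span. Of all 6271 higher regions, 3.76% had a difference at least as wide as the first (0.699) and 1.98% one at least as wide as the second (0.735). The remainder of the 36.1 kb gene held no listed region.

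The junction gene Cdh5 had 1 region, on chromosome 8 from 104110343 to 104110785, starting 8730 bases above the lower end of the gene. The level there was 0.882 in PDGFRα+ cells and 0.254 in CD137+ cells, a difference of 0.628 that 12.5% of all higher regions reached. The region is sparse in CpG cytosines, with 8 in 443 bases. A further region lay just beyond the 2 kb limit, 2028 bases below the gene from 104099378 to 104099585. Its levels were 0.863 in PDGFRα+ cells and 0.228 in CD137+ cells. A second one, 13003 bases below, had levels of 0.797 in PDGFRα+ cells and 0.234 in CD137+ cells. With the flank widened to 10 kb, Cdh5 thus had 2 regions, both higher. Of its 6 outer regions within 100 kb 3 were higher and 3 lower, the lower ones between 39260 and 78787 bases below the gene.

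Pecam1 held 4 regions spread along its 61.1 kb, and all 4 were higher in PDGFRα+ cells by nearly the same amount. In their order along chromosome 11 they began at 106661045, 106681304, 106707145 and 106715620, the last of them 339 bases beyond the upper end of the gene. Their PDGFRα+ levels were 0.913, 0.916, 0.962 and 0.934, and their CD137+ levels were 0.483, 0.513, 0.537 and 0.503. The differences ran from 0.402 to 0.432, while the regions were small, with 5 to 11 cytosines in 67 to 100 bases. Of 387 protein-coding genes with exactly 4 regions, 16 (4.13%) had every region higher. Outside the gene the nearest listed regions, 35892 and 37125 bases above it, were also higher in PDGFRα+, with levels of 0.830 and 0.812 there against 0.267 and 0.175 in CD137+. On the other side, 64658 and 94048 bases below the gene, both listed regions were lower in PDGFRα+, with levels of 0.332 and 0.218 there against 0.920 and 0.876 in CD137+.

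**Figure D3:**
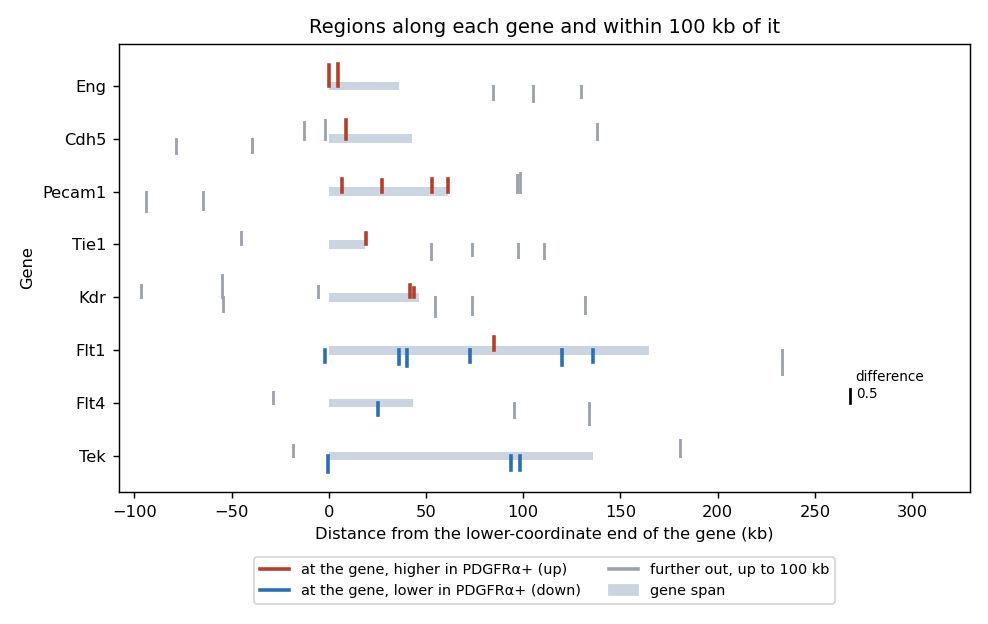
Position of every listed region along each of the 8 genes and within 100 kb on either side, in kb from the lower-coordinate end of the gene (grey bar, the gene span). Ticks point up where the level was higher and down where it was lower in PDGFRα+, with a length proportional to the difference. Pecam1 carries 4 upward ticks of nearly equal length along its span, while Flt1 carries 6 downward ticks and 1 upward.

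Regions near the start were common among these genes. Of the 6 members with a start in the RefSeq promoter table, 4 had a region within 2 kb of it (Eng, Kdr, Tek and Tie1), beside 6.94% of 17492 protein-coding genes. In 3 of these 4 the region was higher in PDGFRα+, and among all 1214 genes with such a region 34.2% had higher regions only. Outside the genes, up to 100 kb away, 31 further regions were listed, of which 12 (38.7%) were higher, beside 22.3% of all regions. Around the 5 genes with higher regions only, 9 of 25 outer regions were higher, and around Flt4 and Tek 3 of 5. The outer regions did not always follow the gene. The 3 around Eng were all lower, and both of those around Tek were higher.

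Where ligand genes had a region, lower ones usually prevailed in PDGFRα+ cells, as in most genes of the table. Of 10 ligand genes 7 had a region, beside 29.5% of all protein-coding genes, with 5 mostly lower, 1 mostly higher and 1 split. Of their 15 regions 11 were lower, a share near the 77.7% of all regions. Over all 6454 protein-coding genes with a region, 4546 were mostly lower, 1393 (21.6%) mostly higher and 515 split. Vegfc, whose product is the ligand of the lymphatic receptor, had 2 lower regions with mean levels of 0.265 in PDGFRα+ cells and 0.774 in CD137+ cells. Gdf2, which encodes a ligand bound by endoglin, had 1 lower region (0.274 in PDGFRα+ cells and 0.945 in CD137+ cells). Angpt4 was lower in both of its regions, with mean levels of 0.162 in PDGFRα+ cells and 0.688 in CD137+ cells. Angpt2, the angiopoietin made by endothelium itself, held 2 regions of each direction, and Vegfa had none.

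Partners of the receptors were divided. Of 15 co-receptors and partners 12 had a region, 6 mostly lower, 4 mostly higher and 2 split. Of all protein-coding genes 29.5% had a region, and 21.6% of those were mostly higher. The partner genes were longer, with a median span of 35.1 kb against 17.2 kb. Among genes in the members' span range 43.1% had a region. Notch1, a receptor of arterial specification, had 1 higher region (0.930 in PDGFRα+ cells and 0.237 in CD137+ cells), while Notch4, its endothelial relative, was lower in both of its regions (means 0.230 in PDGFRα+ cells and 0.757 in CD137+ cells). Ptprb, which encodes the endothelial phosphatase that acts on VE-cadherin and on the receptor encoded by Tek, was higher in 1 region and lower in 3. Tgfbr2, a TGF-β receptor gene, was lower in 2 of 3. Of 14 junction partners 5 (35.7%) had a region, a share near that of all protein-coding genes, with 2 mostly lower and 3 split. Jam2, encoding a junctional adhesion molecule, was lower (0.127 in PDGFRα+ cells and 0.619 in CD137+ cells), and Tjp1, encoding the scaffold ZO-1, held 2 regions of each direction. The catenin genes Ctnnb1 and Ctnnd1, whose products bind the tail of VE-cadherin, each held 1 of each.

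Among transcription factor genes of endothelium, 10 of 18 had a region, 6 mostly higher and 4 mostly lower, and 28 of 42 regions (66.7%) were higher in PDGFRα+. Genome-wide, 29.5% of protein-coding genes had a region, 21.6% of those were mostly higher, and 22.3% of regions were higher. Foxc2, a forkhead factor gene of lymphatic valves, was higher in 4 of 4 regions, with mean levels of 0.692 in PDGFRα+ cells and 0.257 in CD137+ cells. The ETS factor gene Ets1 was higher in 5 of 6, and Erg, the ETS factor gene most closely tied to endothelial identity, in 5 of 8. In Erg the widest of the higher regions, chromosome 16 from 95458151 to 95459419, had levels of 0.934 in PDGFRα+ cells and 0.270 in CD137+ cells over 48 cytosines. Elk3, also of the ETS family, was lower in 4 of 6. Of 22 other endothelial marker genes 10 had a region, 4 mostly lower, 3 mostly higher and 3 split. Stab2, a scavenger receptor gene of sinusoidal endothelium, was lower in 3 of 3 (means 0.295 in PDGFRα+ cells and 0.811 in CD137+ cells), as were both regions of Rasip1, a gene needed for the lumen of vessels, and the only one of Myct1. Esm1, which encodes a proteoglycan secreted by endothelium, was higher in its only region (0.845 in PDGFRα+ cells and 0.362 in CD137+ cells).

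**Figure D4:**
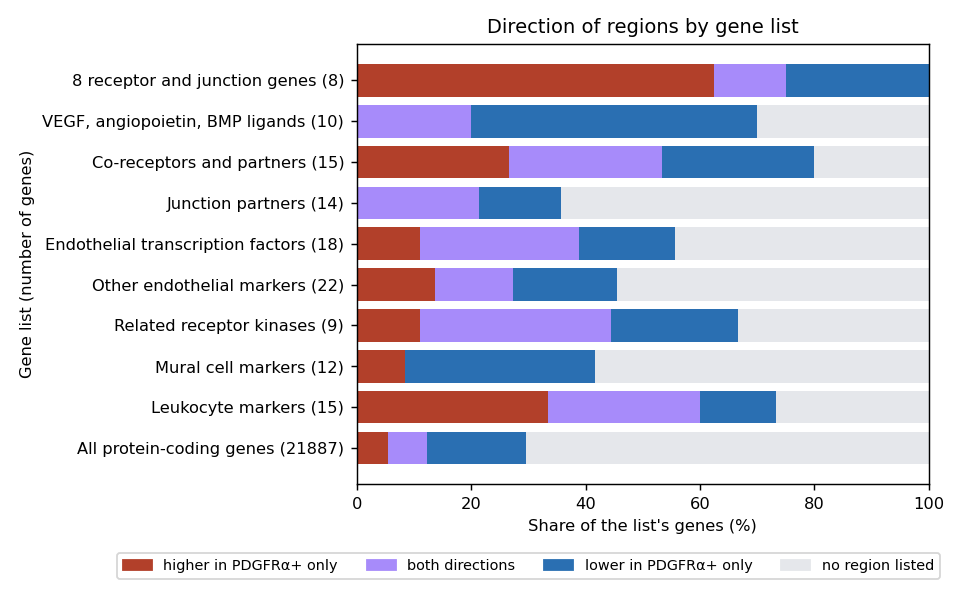
Share (%) of the genes of each list with regions higher in PDGFRα+ only, of both directions, lower only, or with no listed region, for the 8 receptor and junction genes, 8 further lists and all protein-coding genes. Of the 8 genes, all with a region, 5 had higher regions only, beside 1195 of all 21887 protein-coding genes. Those 1195 are 18.5% of the 6454 genes with a region. The list nearest to the 8 genes was that of leukocyte markers, with 5 of 15.

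Genes of other cell types were set beside these values. Among leukocyte markers 11 of 15 had a region, beside 29.5% of all protein-coding genes and 43.1% of those in the members' span range. Of these 11, 3 were mostly lower in PDGFRα+, 6 mostly higher and 2 evenly divided. In all, 24 of their 32 regions (75.0%) were higher in PDGFRα+, beside 22.3% of all regions. Ptprc, the gene of the common leukocyte antigen, was higher in 8 of 8. The lymphoid factor gene Ikzf1 was higher in 5 of 5 and the lysosomal membrane protein gene Laptm5 in 3 of 3. The actin-bundling gene Lcp1 was higher in 2 of 3, and Spi1, a myeloid factor gene, held 1 region of each direction. The mostly lower genes were Cd3e of the T cell receptor complex (0.324 in PDGFRα+ cells and 0.966 in CD137+ cells), the integrin gene Itgal (0.366 in PDGFRα+ cells and 0.916 in CD137+ cells) and Vav1, lower in 3 of 5. Among mural cell markers 5 of 12 had a region, beside 29.5% of all protein-coding genes, and 5 of 6 regions were lower, a share near the 77.7% of all regions. The contractile gene Acta2 had levels of 0.148 in PDGFRα+ cells and 0.723 in CD137+ cells, Rgs5 and Notch3 were likewise lower, and the channel gene Kcnj8 was higher (0.821 in PDGFRα+ cells and 0.230 in CD137+ cells). Whether different shares of leukocytes or endothelial cells in the cultures contributed to the levels at the 8 genes was not tested. The related receptor kinase genes were mixed, with 8 of 13 regions lower, beside 77.7% of all regions. Kit was higher in 2 of 3 regions and lower in the third, Flt3 was higher in 1 of 3, Fgfr1 in 1 of 3, and the only region of Pdgfra was lower (0.210 in PDGFRα+ cells and 0.769 in CD137+ cells). Csf1r, which is also among the leukocyte markers, was higher in its only region (0.957 in PDGFRα+ cells and 0.540 in CD137+ cells). The median of the genes' mean differences was 0.385 for the 8 receptor and junction genes and -0.445 over all protein-coding genes with a region. It was 0.243 for the transcription factors and 0.167 for leukocyte markers. It was -0.0525 for other endothelial markers, -0.112 for junction partners, -0.119 for receptor partners and -0.190 for related kinases. Mural markers (-0.450) and ligands (-0.525) had the lowest medians.

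For the 3 members with at least 3 regions, the genes most alike were those with the same number of regions, the same number of lower ones and the nearest pair of mean levels in the 2 libraries. Pecam1 (means 0.931 in PDGFRα+ cells and 0.509 in CD137+ cells) was nearest to Dnajc13 (0.944 in PDGFRα+ cells and 0.555 in CD137+ cells) and Ubac2 (0.927 in PDGFRα+ cells and 0.395 in CD137+ cells), out of 15 candidates. Tek (means 0.351 in PDGFRα+ cells and 0.845 in CD137+ cells) was nearest to Gpr1 (0.364 in PDGFRα+ cells and 0.846 in CD137+ cells) and Pde4dip (0.366 in PDGFRα+ cells and 0.845 in CD137+ cells), out of 289. Flt1 (means 0.416 in PDGFRα+ cells and 0.738 in CD137+ cells) was nearest to Myo10 (0.432 in PDGFRα+ cells and 0.764 in CD137+ cells) and Plekhm3 (0.385 in PDGFRα+ cells and 0.752 in CD137+ cells), out of 23. The likeness rests on 1 value per library.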

How the data were processed

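The data were 1 table of differentially methylated regions made by the authors, with 28141 regions. Per the file headers it gives the methylation level of each region in each library, deposited as a fraction from 0 to 1, the difference of the levels (PDGFRα+ minus CD137+) and an area statistic, both deposited as a score, and the length and number of cytosines. Positions are on mm10 (per the submitters' processing notes). No label or header names the aligner, callers, thresholds or coverage minimum (not given in the sources used here), and levels have no read counts, so no interval can be given. Only regions called as different were listed.

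Deposited starts count from 0. Of 243 starts inside RefSeq promoter windows, all had a CpG cytosine at the next base, as had all 233 ends at the end itself, and starts are printed 1 higher than deposited. In all 82 regions wholly inside such a window the number of cytosines was at most that of the CpG cytosines of both strands. In 40 of them it was equal, so both cytosines of a CpG site, 1 on each strand, can be counted. The number of CpG sites in a region can thus be smaller than its number of cytosines.

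Regions were assigned to RefSeq gene spans (GRCm38.p6) plus 2 kb, and all 8 members and the 114 other listed genes matched by symbol. Exons and introns were not separated. A gene is mostly higher or lower by most of its regions. Named from each other list were up to 4 genes with the largest statistic and any with at least 3 regions in 1 direction. The members and lists were chosen with earlier results of these data known, and the outer 100 kb was examined after values were seen. Other genes named were chosen after their values were seen. No test was made, with 1 library per group. Alternatives were 2 other flanks, minimum differences and cytosine numbers, stronger statistics, weighting and leaving out each gene. The assignment was tested on simulated data (200 of 200 regions correct) and matched an exhaustive search for 300 genes with 0 mismatches. The tools were matplotlib 3.10.9, scipy 1.17.1, pandas 2.3.3, numpy 2.4.6 and Python 3.11.15.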

Additional observations from a re-analysis of the deposited data

How the results depend on the processing

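The direction of every member gene's mean difference was the same under each alternative that left it a region. Of 63 such values 57 moved by less than 0.05, and the other 6 were those of Flt1 and Kdr. Many could not move. Flt4, Tie1 and Cdh5 had 1 region each, so no weighting, and no filter that kept it, could change their values. The minimum difference of 0.3 removed none of the 21 regions. The median difference over the members' regions (0.331) was -0.0271 with the gene span only, -0.385 with at least 10 cytosines, with statistics above the median, and weighted by length or by cytosines, and 0.0573 with differences of at least 0.5. It ran from -0.388 to 0.410 when each gene was left out in turn, and the share of lower regions then ran from 28.6% (without Flt1) to 58.8% (without Pecam1). The number of members with a region was 4 with differences of at least 0.5, and the number of regions was 6 there, 9 with at least 10 cytosines and 9 with stronger statistics. The number of regions ran from 14 to 20, and of members was 7, with each gene left out in turn. The mean PDGFRα+ level (0.636) was 0.571 with at least 10 cytosines and with stronger statistics and 0.585 weighted by cytosines, and the mean CD137+ level was 0.523 with differences of at least 0.5. At 10 or more cytosines Tie1 and Cdh5 held no region. No paired analysis was possible because each group has 1 library. Depth is unknown, so small regions may rest on few reads.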
